A study of Mus musculus with 2 samples.

Results

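The genes described here are 31 genes of cholesterol and fatty acid synthesis and of the sterol sensing system that regulates them. They were chosen by name from known biochemistry, with earlier results of these data known, and are 31 of the 38924 genes in the deposited tables. The study measured RNA from pancreatic islets of male mice aged 10 weeks, from the inbred strains C57BL/6J (B6) and CAST/EiJ (CAST). CAST is a wild-derived strain of another subspecies than the laboratory strain B6. The mice ate standard chow, no treatment was given, and no allele was altered. Islets of 2 mice per strain were pooled, and 250 islets of each pool were used for RNA after isolation in buffer with 16.7 mM glucose. Each strain is therefore 1 library, a single mixture of 2 animals. The strain, the animals and the handling of the pool cannot be told apart, no test between the strains is possible, and every interval below covers counting error only.

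Cholesterol is built from acetyl-CoA through mevalonate and isoprenoid units to squalene, which is closed to a ring and trimmed to cholesterol in the endoplasmic reticulum. The transcription factors SREBF2 and SREBF1 are made as membrane-bound precursors. SCAP carries them to the Golgi for cleavage when sterol is scarce, and INSIG1 and INSIG2 hold SCAP back when sterol is plentiful. Cleaved SREBF2 acts mainly on sterol genes, and SREBF1 mainly on the genes that make, lengthen and desaturate fatty acids. In islets, the products of these pathways are used for cell membranes and for the membranes of insulin granules.

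RefSeq promoter windows on GRCm38.p6, each from 250 bases before to 50 after a gene's start, were present for 24 of the 31 genes. The following 250 bases before the start are shown for Hmgcs1, whose window held the classical sterol response sequence, for Sc5d, the only one of the 31 genes whose main transcript changed its share by 20 or more percentage points, and for Srebf1, the only one whose main transcript differed between the libraries in TPM. Each reads 5′ to 3′ on the gene's strand, and capitals mark letters of motif matches, on either strand, that lie wholly within the printed bases.
Hmgcs1, window nearest the start of Hmgcs1-201 (chr13:119690101-119690350, plus strand): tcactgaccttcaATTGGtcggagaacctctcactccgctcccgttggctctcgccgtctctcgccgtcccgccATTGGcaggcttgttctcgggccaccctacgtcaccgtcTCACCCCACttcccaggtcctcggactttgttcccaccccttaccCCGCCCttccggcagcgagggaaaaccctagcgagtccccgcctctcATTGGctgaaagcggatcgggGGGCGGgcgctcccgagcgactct
Sc5d, window nearest the start of Sc5d-201 (chr9:42264301-42264550, minus strand): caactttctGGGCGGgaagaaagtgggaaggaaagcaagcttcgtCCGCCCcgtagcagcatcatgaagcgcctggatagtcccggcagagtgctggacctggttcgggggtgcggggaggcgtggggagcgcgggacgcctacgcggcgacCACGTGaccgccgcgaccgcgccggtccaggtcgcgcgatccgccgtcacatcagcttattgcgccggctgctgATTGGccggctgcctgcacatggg
Srebf1, window nearest the start of Srebf1-201 (chr11:60220628-60220877, minus strand): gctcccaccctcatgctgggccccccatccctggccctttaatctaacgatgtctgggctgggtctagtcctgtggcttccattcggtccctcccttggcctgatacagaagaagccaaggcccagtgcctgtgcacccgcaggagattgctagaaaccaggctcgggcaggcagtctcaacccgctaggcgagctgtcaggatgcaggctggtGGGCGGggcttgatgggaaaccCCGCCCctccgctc
Srebf1, window nearest the start of Srebf1-207 (chr11:60210472-60210721, minus strand): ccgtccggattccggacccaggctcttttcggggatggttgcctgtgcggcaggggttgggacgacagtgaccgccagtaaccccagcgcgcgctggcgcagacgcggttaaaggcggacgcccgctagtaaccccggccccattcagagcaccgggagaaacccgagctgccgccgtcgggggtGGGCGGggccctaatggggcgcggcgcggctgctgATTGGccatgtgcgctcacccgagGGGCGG
The starts that these windows precede lie 95, 44, 23 and 6 bases, in that order, from the start of the named transcript in the gene annotation. The motifs searched on both strands were TCACCCCAC (the core of the sterol regulatory element), TCACNCCAC (its relaxed form, which contains the former), CCAAT, the E-box CACGTG and the GC box GGGCGG. In Hmgcs1 the element TCACCCCAC lay 137 bases before the start. It was in the windows of 1 of the 24 genes (4.17%) and in those of 0.614% of the 27025 genes with a window. The relaxed form was found in Hmgcs1 alone among the 24 genes, and in 1.44% of all genes. CCAAT was present for 19 of the 24 genes (79.2%) against 41.1% of all genes, and GGGCGG for 18 (75%) against 38.2%. CACGTG was present for 6 of the 24 genes (25%), namely Dhcr7, Elovl5, Hsd17b7, Insig1, Sc5d and Scap, against 8.09% of all genes. In Sc5d it lay 98 bases before the start. These matches describe the reference sequence of B6 and say nothing of the sequence in CAST or of binding.

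The B6 library held 76600903 expected counts and the CAST library 104324631. TPM scales a count for transcript length and library, and 12811 genes in B6 and 12540 in CAST reached 1 TPM. The 8 beta cell markers, among them both insulin genes, took 17.8% of all counts in B6 and 23.1% in CAST. Markers of exocrine acinar cells differed between the pools: all 9 were at least 2-fold higher in CAST (range of log2 ratios 1.30 to 2.57), and their summed TPM was 5197 in B6 and 16420 in CAST. They took 0.471% (95% interval 0.469 to 0.473) of the counts in B6 and 1.65% (1.65 to 1.66) in CAST. All 6 stellate cell and fibroblast markers were also at least 1.5-fold higher in CAST, with a summed TPM of 20.0 in B6 and 32.7 in CAST. All 4 delta cell markers and 4 of the 5 alpha cell markers were lower in CAST, with medians of -0.84 and -0.73 on the log2 scale. The medians of the duct, endothelial, leukocyte and Schwann cell markers were 1.23, 0.45, 0.35 and 0.40. Of the adipocyte markers, Adipoq, Plin1 and Lep had 0 counts in both libraries, and Fabp4 and Pparg were lower in CAST. The part of these other cells in the differences below was not tested, and in whole islets fewer cells of a type cannot be told apart from less RNA per cell.

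The largest differences among the 31 genes lay in fatty acid desaturation, where Fads2, Scd1 and Fads1 were more than 2-fold higher in the CAST library. Pmvk, an enzyme of the mevalonate steps, was 2.10-fold lower. Most other genes of both pathways differed by less than 1.5-fold. Each ratio is CAST over B6 after scaling by TMM, which sets the bulk of genes near equality. All 31 genes had at least 100 counts over both libraries, as did 14768 genes in all, to which the shares below refer. At 1.5-fold, 7 of the 31 (22.6%) were higher in CAST, where 12.4% of all genes were, and 1 (3.23%) was higher in B6, where 12.8% of all genes were. In either direction 8 of the 31 passed 1.5-fold, where 25.2% of all genes did, so their number past that line is near the background. At 2-fold, 3 (9.68%) were higher in CAST against 7.18% of all genes, and 1 (3.23%) was higher in B6 against 5.99%. The log2 ratio was above 0 for 23 genes and below 0 for 8, and its median was 0.21 against 0.02 over all genes.

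Reads of both strains were quantified on the reference build, which is B6 sequence, and whether strain variants lowered the counts of single genes in CAST was not tested. The direction of the smaller differences rested on the scaling. Scaled by total counts, the median of all genes moved to -0.14, 18 of the 31 genes were above 0, and 4 passed 1.5-fold upwards and 1 downwards, where 9.74% and 18% of all genes did. On the log2(TPM + 1) scale the median of all genes was -0.26, 10 of the 31 were above 0, and 2 passed upwards and 2 downwards, where 5.03% and 18.6% of all genes did. Scaling by total counts moves all genes by nearly the same amount, so it cannot test where a group stands against all genes. After TMM and on the TPM scale, the median of each of the 4 groups described below was above that of all genes. For the sensing group the gap was small, 0.055 against 0.018 after TMM and -0.254 against -0.264 on the TPM scale. Fads2, Fads1 and Pmvk passed 1.5-fold on every scale tried. Scd1 passed on all but the log2(TPM + 1) scale, where it was at 0.54. Its level of 0.977 TPM in B6 is close to the 1 added there. With that scale centred on the median of all genes, a choice made after seeing the data, Scd1 passed at 0.80.

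**Figure D1:**
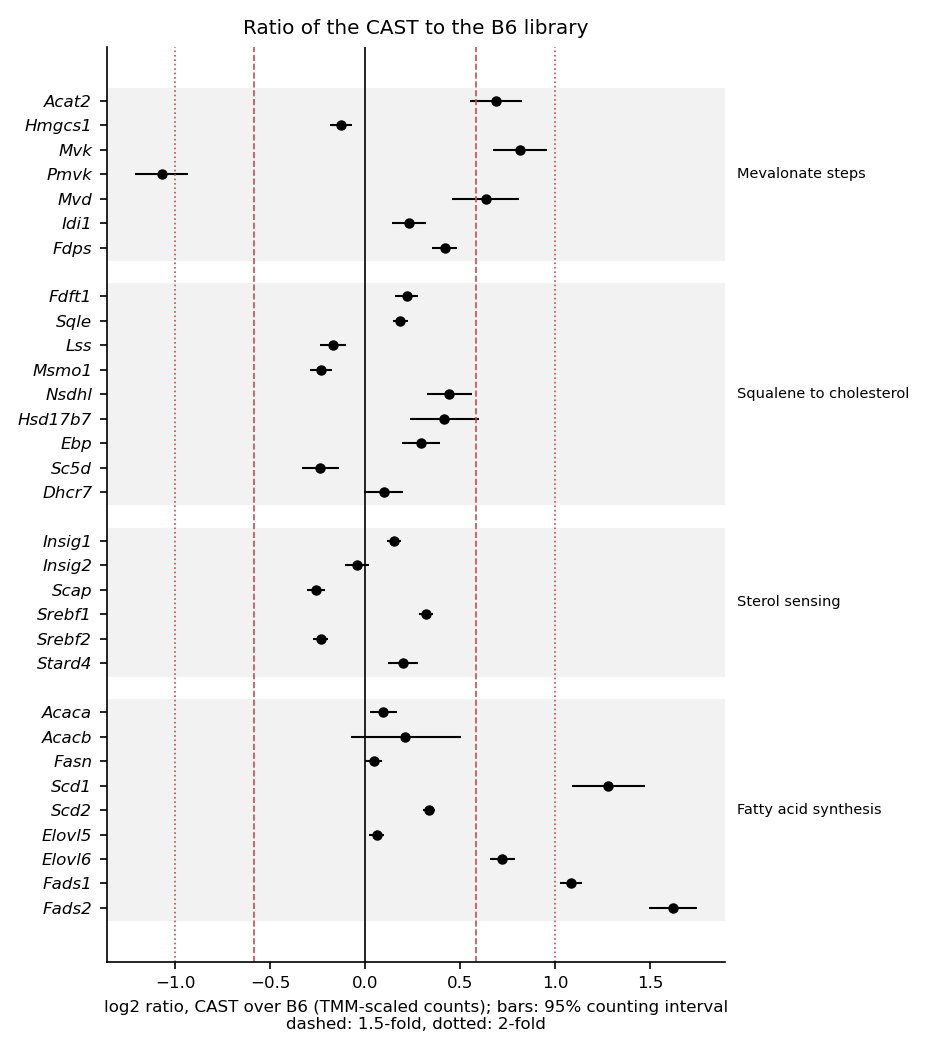
The log2 ratio of TMM-scaled counts, CAST over B6, for each of the 31 genes, grouped by role, with bars for the 95% counting interval of 1 library per strain and red lines at 1.5-fold (dashed) and 2-fold (dotted). Fads2 at 1.62, Scd1 at 1.28 and Fads1 at 1.08 lie beyond the upper 2-fold line, Pmvk at -1.07 lies beyond the lower one, and all genes of the squalene and sensing groups lie between the 1.5-fold lines.

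Together the 31 genes took 0.158% (0.157 to 0.159) of all counts in B6 and 0.160% (0.159 to 0.160) in CAST, and their summed TPM was 611 and 545. The levels spanned from 0.487 TPM for Acacb to 55.8 for Elovl5 in B6, and from 0.434 for Acacb to 49.0 for Sqle in CAST. The same 5 genes were highest in both libraries: Elovl5, Insig1, Sqle, Srebf1 and Fdps. Their order differed, since Elovl5 was the highest in B6 and Sqle in CAST. Acacb, the acetyl-CoA carboxylase linked to fatty acid oxidation, was lowest in both. In B6 29 of the 31 genes reached 1 TPM, and in CAST 30 did, the difference being Scd1.

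**Figure D2:**
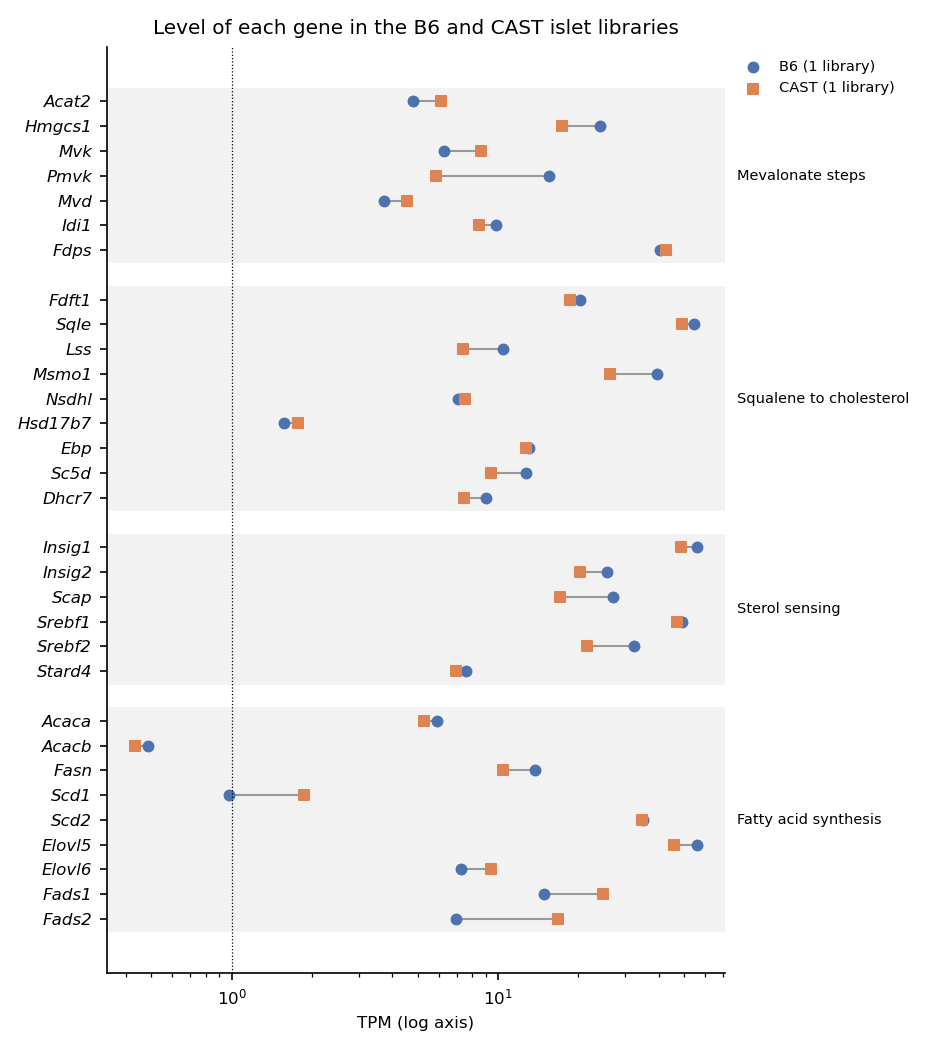
The level of each gene in TPM on a log axis, with circles for the B6 library, squares for the CAST library and a dotted line at 1 TPM. Only Acacb lies below 1 TPM in both libraries, and Scd1 moves from 0.977 in B6 to 1.87 in CAST.

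The mevalonate steps, from acetyl-CoA units to farnesyl diphosphate, differed gene by gene. Of the 7 genes, 3 were at least 1.5-fold higher in CAST, 1 was at least 1.5-fold lower and 3 lay within, where 12.4% of all genes were higher and 12.8% lower, and the median log2 ratio was 0.42. Mvk, the mevalonate kinase, had 606 counts in B6 and 1303 in CAST, a log2 ratio of 0.81 (0.68 to 0.96). Pmvk, the kinase of the next step, had 1122 counts in B6 and 653 in CAST, a log2 ratio of -1.07 (-1.21 to -0.93). These neighbouring steps thus went in opposite directions, and in TPM they changed order: Mvk was at 6.25 and Pmvk at 15.6 in B6, and Mvk at 8.63 and Pmvk at 5.82 in CAST. Mvd, the decarboxylase that follows them, had 406 and 770 counts, a log2 ratio of 0.63 (0.46 to 0.81). Its interval reaches below 1.5-fold, as does that of Acat2, so their place past that line is less certain than that of Mvk.

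At the entry to the pathway, Acat2, the cytosolic acetoacetyl-CoA thiolase, had 655 counts in B6 and 1291 in CAST, a log2 ratio of 0.69 (0.55 to 0.83). Its near-identical neighbour Acat3 (98.3% identity over 1441 aligned bases) held 18 and 8 counts, and with these added the ratio was 0.66. Hmgcs1, the synthase of HMG-CoA whose promoter is printed above, had 4916 and 5499 counts, a log2 ratio of -0.13 (-0.18 to -0.07). It was the most counted gene of the group and differed by only 1.09-fold. Idi1, which isomerises isopentenyl diphosphate, had 1729 and 2481 counts, a log2 ratio of 0.23 (0.14 to 0.32), and its copy Gm13502 had 30 and 53. Fdps, which joins isoprenoid units to farnesyl diphosphate, had 3041 and 4970 counts, a log2 ratio of 0.42 (0.35 to 0.49). Scaled by total counts, Acat2 and Mvd lay within 1.5-fold, and by TPM these and Mvk did, while none of the 3 changed sign. Idi1 was below 0 on the TPM scale.

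Pmvk (ENSMUSG00000027952) lies at chr3:89454541-89469013 on the plus strand of GRCm38. This region and those of Fads2 and Scd1 were examined because of the values above. Of its 13 named neighbours, genes that lie at least in part within 200 kb of its start and have at least 100 counts over both libraries, 0 were 1.5-fold higher in CAST and 2 were 1.5-fold lower. These were the metalloprotease gene Adam15, with a log2 ratio of -0.88, and the FAD synthetase gene Flad1, at -0.67. Of all genes, 12.4% were 1.5-fold higher in CAST and 12.8% were 1.5-fold lower. The median of the neighbours was -0.13. Pmvk-201 made up 93.3% of the counts of Pmvk in B6 and 98.9% in CAST, so the lower value was carried by the main transcript.

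From squalene to cholesterol, all 9 genes lay within 1.5-fold, with log2 ratios from -0.24 to 0.44 and a median of 0.19. Of all genes, 25.2% passed that line in either direction. Fdft1, the squalene synthase, had 3645 counts in B6 and 5182 in CAST, a log2 ratio of 0.22 (0.16 to 0.28). It shares 774 exon bases, 18.3% of its exon length, with Ctsb on the opposite strand, and reads of the pair cannot be told apart without strand. Ctsb had 18151 and 27910 counts, a log2 ratio of 0.33. Gm6781, a near-identical copy of Fdft1, and Gm11295, one of Elovl6, had 0 counts in both libraries. Sqle, the epoxidase that oxidises squalene, was the most counted gene of the group with 9534 and 13250 counts, a log2 ratio of 0.19 (0.15 to 0.22). Lss, which closes the ring to lanosterol, had 3301 and 3590 counts, a log2 ratio of -0.17 (-0.24 to -0.10), and at least 32.8% of its counts in either library belonged to transcripts annotated as retaining an intron. With protein coding transcripts only, the ratio of Lss was 0.21, so its direction depends on that choice.

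The later enzymes split in direction. Msmo1, the methyl sterol oxidase, had 5055 and 5258 counts, a log2 ratio of -0.23 (-0.29 to -0.18), and Sc5d, the sterol desaturase, 1718 and 1782 counts, a ratio of -0.24 (-0.33 to -0.14). These were the lowest of the group. Nsdhl, which removes the carboxyl group that Msmo1 leaves, had 951 and 1580 counts and the highest ratio, 0.44 (0.33 to 0.56). Hsd17b7, the ketoreductase of the same demethylation, had 402 and 655 counts, a ratio of 0.41 (0.23 to 0.60). Enzymes of this demethylation complex thus lay at both ends of a narrow range. Ebp, the sterol isomerase, had 1349 and 2019 counts, a ratio of 0.29 (0.19 to 0.39). Dhcr7, a late reductase, had 1348 and 1763 counts, a ratio of 0.10 (-0.005 to 0.20), whose counting interval includes 0. Dhcr7 was below 0 under scaling by total counts, and on the TPM scale Fdft1, Sqle, Ebp and Dhcr7 were, so that the median of the group was -0.15 there against -0.26 for all genes.

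The 6 genes of sterol sensing also all lay within 1.5-fold, with a median of 0.06 on the log2 scale. Most genes do, since 25.2% of all genes passed that line in either direction. Srebf1 had 9686 counts in B6 and 14767 in CAST, a log2 ratio of 0.32 (0.28 to 0.36), and Srebf2 had 10267 and 10662 counts, a ratio of -0.23 (-0.27 to -0.20). The level of Srebf2 per unit of Srebf1 was 0.661 in B6 and 0.462 in CAST in TPM. The fatty acid regulator was thus higher and the sterol regulator lower in the CAST library, and neither difference reached 1.5-fold. On the TPM scale both were lower in CAST, Srebf1 at 48.8 in B6 and 46.8 in CAST, and Srebf2 at 32.3 and 21.6. Srebf1 shares 1.93% of its exon bases with Rai1 on the opposite strand, which had 5910 and 5236 counts.

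Scap, the escort of both precursors, had 6697 and 6836 counts, a log2 ratio of -0.26 (-0.31 to -0.21), and was the lowest of the group. On the TPM scale it was 27.1 in B6 and 17.1 in CAST and passed 1.5-fold downwards. It shares 13.2% of its exon bases with 5830462I19Rik on the opposite strand, which had 108 and 83 counts. Of the retention proteins, Insig1 had 9416 and 12790 counts, a log2 ratio of 0.15 (0.11 to 0.19), and Insig2 had 4025 and 4774, a ratio of -0.04 (-0.10 to 0.02). Insig1, itself a target of SREBF, stayed above Insig2, at 2.17 times its TPM in B6 and 2.39 times in CAST. Stard4, which carries cholesterol between membranes, had 2323 and 3261 counts, a ratio of 0.20 (0.12 to 0.28). Under scaling by total counts Insig1 was below 0, and on the TPM scale Insig1, Srebf1 and Stard4 were.

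In fatty acid synthesis all 9 genes had a log2 ratio above 0 after TMM scaling, with a median of 0.34, but Acaca, Fasn and Elovl5 were below 0 under total counts, and these with Acacb and Scd2 were on the TPM scale. The enzymes that make palmitate were nearly level. Acaca, the acetyl-CoA carboxylase that commits acetyl-CoA to the pathway, had 2920 counts in B6 and 3813 in CAST, a log2 ratio of 0.10 (0.03 to 0.17). Fasn, the fatty acid synthase, had 7028 and 8854 counts, a ratio of 0.04 (-0.001 to 0.09). Acacb had 173 and 245 counts, a ratio of 0.21 (-0.07 to 0.50), a wide interval that includes 0. Acaca was 12.1 times as high as Acacb in TPM in both libraries.

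Within the fatty acid group, the 6 desaturases and elongases had a median log2 ratio of 0.90, against 0.34 for the full group. Of the 6, 4 were at least 1.5-fold higher in CAST, where 12.4% of all genes were. This subset was not one of the groups planned. It leaves out Acaca, Acacb and Fasn, at 0.10, 0.21 and 0.04, all below the median of the full group. Its median and its share past 1.5-fold are higher by that choice. On the TPM scale only Fads1 and Fads2 of the subset passed 1.5-fold. Fads2 (ENSMUSG00000024665), which catalyses the first desaturation of polyunsaturated fatty acids, had 645 counts in B6 and 2421 in CAST, a log2 ratio of 1.62 (1.49 to 1.75) or 3.07-fold. Fads1 (ENSMUSG00000010663), the desaturase that acts later in the same chain, had 3250 and 8421 counts, a ratio of 1.08 (1.03 to 1.14) or 2.12-fold. Among all 14768 genes these lay at the percentiles 95.6 and 93.3. Both are single-transcript genes in the deposited tables, so a difference between transcripts could not be measured for them. Elovl5, the elongase between these desaturation steps, had 9758 and 12433 counts, a ratio of 0.06 (0.02 to 0.10). In the polyunsaturated chain both desaturases were thus higher in CAST, and the elongase that works between them differed by 1.04-fold.

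For the saturated and monounsaturated products, Scd1 (ENSMUSG00000037071), a stearoyl-CoA desaturase that makes oleic and palmitoleic acid, had 301 counts in B6 and 893 in CAST. Its log2 ratio was 1.28 (1.09 to 1.47), or 2.43-fold. Scd2, the desaturase of the same reaction that predominates in islets here, had 12197 and 18803 counts, a ratio of 0.34 (0.30 to 0.37). Scd2 was 35.9 times as high as Scd1 in TPM in B6 and 18.6 times in CAST, so the 2.43-fold difference concerned the minor enzyme. Scd1 and Scd2 align at 94.2% identity over 896 bases, and how the authors' estimate divided reads of that stretch was not tested. Elovl6, which lengthens palmitate to stearate, had 2765 and 5575 counts, a ratio of 0.72 (0.66 to 0.79) or 1.65-fold. It lay within 1.5-fold under total counts, at 0.57, and on the TPM scale, at 0.34. The TPM of Elovl5 was 7.67 times that of Elovl6 in B6 and 4.86 times in CAST.

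Fads1, Fads2 and Scd1 all lie on chromosome 19, in separate regions. Fads2 lies at chr19:10062765-10101746 on the minus strand and Fads1 at chr19:10182888-10196877 on the plus strand, with starts 81.1 kb apart and pointing away from each other. Of the 8 named neighbours of Fads2, by the same definition, 3 were higher in CAST by 1.5-fold or more, none was lower by that fold, and the median log2 ratio was 0.42. Besides Fads1, itself among the 31 genes, they were Myrf and Fads3. Of all genes, 12.4% were 1.5-fold higher in CAST and 12.8% were 1.5-fold lower. Myrf, a membrane-bound transcription factor known from myelination whose start is 139.0 kb from that of Fads2, had 822 and 2526 counts, a ratio of 1.33 (1.22 to 1.45). Fads3, the remaining desaturase gene of the cluster, had 155 and 291 counts, a ratio of 0.62 (0.33 to 0.91). The ferritin heavy chain gene Fth1 was at 0.55, the nuclease gene Fen1 at 0.30, the lipase gene Dagla at 0.23, Rab3il1 at 0.04 and Tmem258 at -0.01. By start position, Tmem258 near 0 and Fen1 at 0.30 (0.13 to 0.46) thus stood between Fads1 and Myrf, both more than 2-fold higher in CAST.

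**Figure D3:**
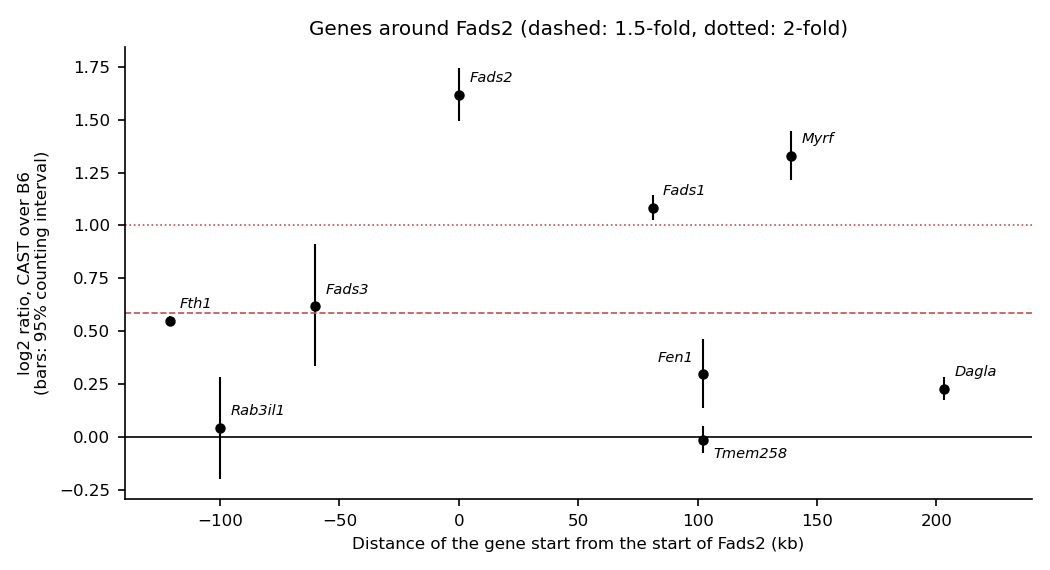
The log2 ratio, CAST over B6, of Fads2 and its named neighbours against the distance of each gene's start from that of Fads2 in kb, with 95% counting intervals and red lines at 1.5-fold (dashed) and 2-fold (dotted). Fads2, Myrf and Fads1 lie above the 2-fold line, with Tmem258 at -0.01 and Fen1 at 0.30 between Fads1 and Myrf.

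Scd1 lies at chr19:44394455-44407879, beside its paralogs. Scd3 had 103 and 249 counts, a log2 ratio of 0.98 (0.65 to 1.33), and Scd4 had 36 and 69 counts, a ratio of 0.64 (0.05 to 1.27). All 4 paralogs had ratios above 0, from 0.34 for Scd2 to 1.28 for Scd1, the order being Scd1, Scd3, Scd4 and Scd2. The interval of Scd3 overlaps those of Scd1 and Scd4, and that of Scd4 also overlaps that of Scd2. On the TPM scale Scd2 alone of these paralogs was not higher in CAST. The other named neighbours of Scd1, by the same definition, were also above 0: Ndufb8 at 0.53, Sec31b at 0.37 and Hif1an at 0.03. A ratio above 0 was thus not particular to the paralogs. Of the 6 neighbours, 2 were 1.5-fold higher in CAST and 0 lower, where 12.4% and 12.8% of all genes were, and their median was 0.45.

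The deposited transcript lengths bear on some of these genes. The length that counts and TPM together imply was within 1.5-fold of the annotated length for all but 2 of the 33 transcripts compared. The exceptions were Fads2-201, with an implied 1487 bases against 3150 in the annotation used here, and Sc5d-201, with 2246 in B6 against 4787. Among all transcripts with at least 100 counts in B6, 3.24% differed by that much. The authors' models of these transcripts were thus shorter than the present ones. Reads in the missing stretch would not have been counted in either library, and the TPM of Fads1 relative to Fads2, 2.13 in B6 and 1.47 in CAST, rests on those models.

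The same transcript was most abundant in both libraries for 30 of the 31 genes. Of the 20 genes with several transcripts, 1 (5%) had another main transcript in CAST and 1 (5%) changed its main share by 20 or more percentage points, where 8.08% and 5.98% of 8976 genes did. The first was Srebf1 and the second Sc5d. Transcript shares from short reads are estimates.

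In Srebf1, Srebf1-201 took 56.4% (55.4 to 57.3) of the gene's counts in B6 and 44.7% (43.9 to 45.6) in CAST. The annotated starts of Srebf1-201 and Srebf1-207 lie 1977 and 12116 bases from the first start of the gene, each beside its own promoter window printed above. Srebf1-207 took 28.4% (27.5 to 29.3) and 35.3% (34.5 to 36.1). In TPM, Srebf1-201 led in B6 with 40.9% against 28.1%, and Srebf1-207 led in CAST with 35.8% against 33.3%. By counts Srebf1-201 stayed ahead in both libraries, so the change of order is found in TPM alone. Another coding transcript, Srebf1-203, went from 10.7% of counts to 16.4%. The expected counts of Srebf1-207, rounded, were 2748 in B6 and 5209 in CAST, and those of Srebf1-201 were 5458 and 6608.

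Sc5d-201 took 87.7% (86.0 to 89.2) of the counts of Sc5d in B6 and 58.8% (56.5 to 61.1) in CAST. Sc5d-202 took the rest, 12.3% and 41.2%. Their annotated starts lie 56 bases apart, both have 6 exons, and in the annotation used here they are 4787 and 1677 bases long. The gene as a whole was at a log2 ratio of -0.24, as given above. Insig2-201 went from 97.0% to 92.5% of counts as Insig2-208 went from 1.93% to 7.16%, and Acaca-201 held 95.6% and 98.1%.

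Lss and the transcripts that follow are described after their values were seen. In Lss the coding transcript Lss-201 held 51.6% (49.9 to 53.3) of counts in B6 and 67.2% (65.6 to 68.7) in CAST, and the share of its retained-intron transcripts was 48.3% (1595 counts) in B6 and 32.8% (1179 counts) in CAST. Lower shares of such transcripts in CAST were general: they were found in 9 of the 14 genes here that have them (64.3%) and in 3464 of 4650 genes in all (74.5%). Pooled over genes, the share was 5.43% in B6 and 2.97% in CAST for the 14 genes, and 6.48% and 4.35% for all. Msmo1 went from 10.9% to 4.93% and Sqle from 2.97% to 1.17%. Acacb went the other way, from 5.34% on 9 counts to 25.4% on 62 counts.

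Some transcripts were listed at 0 counts in CAST, which allows up to 3 counts, while holding at least 20 in B6. That limit covers counting error only, and how the authors' estimate divided shared reads among transcripts of a gene was not tested. The transcripts were Dhcr7-201 with 167 counts, Msmo1-206 with 86, Acaca-202 with 71, Mvk-202 with 61 and Acacb-202 with 28. They are among 130 transcripts listed for the 31 genes, none of which showed the reverse. Among all 94545 transcripts, 691 were at 0 in CAST in this way and 1106 showed the reverse. The CAST library was the deeper, with 104324631 counts against 76600903, so the line of 20 counts is reached more easily there. Mvk-202 alone was 10.1% of the counts of Mvk in B6, and Mvk-201 held 75.5% there and 91.1% in CAST.

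**Figure D4:**
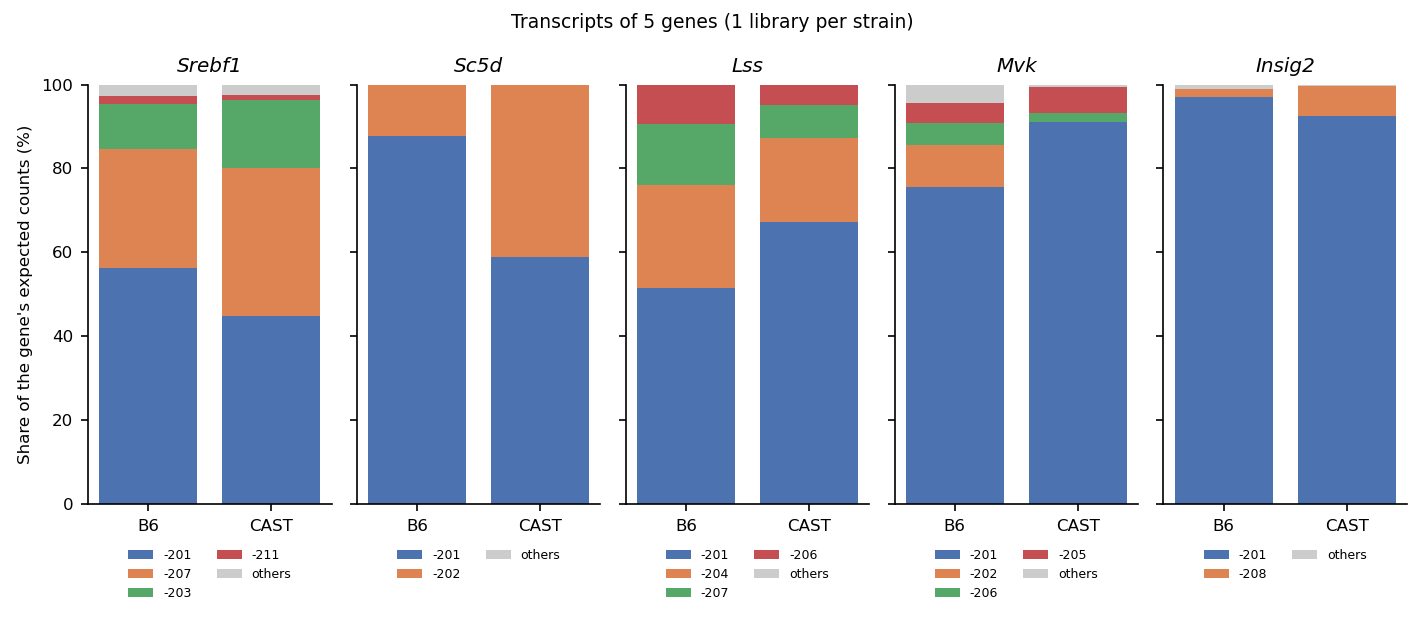
The share of each gene's expected counts, in percent, that its transcripts took in the B6 and the CAST library, stacked, for 5 genes. Sc5d-201 goes from 87.7% in B6 to 58.8% in CAST, Srebf1-201 from 56.4% to 44.7%, and Lss-201 from 51.6% to 67.2%.

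Other genes of these pathways were described from lists chosen by function, also with earlier results of these data known. Each count at 1.5-fold is to be read against the 12.4% of all genes that were higher in CAST and the 12.8% that were lower. Of 9 further genes of sterol and isoprenoid synthesis, 1 was at least 1.5-fold higher in CAST and 1 lower, with a median log2 ratio of 0.15. Tm7sf2, a sterol reductase acting on lanosterol products, was lower with 1456 counts in B6 and 1096 in CAST, a ratio of -0.70 (-0.81 to -0.58). Nus1, a subunit of the dolichol-making enzyme, stood at 0.25. None of the 10 genes of SREBP cleavage and turnover passed 1.5-fold, and their median was 0.04. The ubiquitin conjugating enzyme Ube2g2 was the highest at 0.41, and the Golgi proteases Mbtps2 and Mbtps1 stood at 0.28 and -0.15. As in the sensing group of the 31 genes, all lay within 1.5-fold.

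Of 18 genes of sterol uptake, transport and storage, 2 were higher and 1 lower at 1.5-fold, with a median of 0.13. The sterol transfer gene Gramd1b stood at 0.70 and the sterol-binding receptor gene Tmem97 at 0.66. Lrp8, an apolipoprotein E receptor, had 3601 counts in B6 and 2144 in CAST, a ratio of -1.04 (-1.11 to -0.96), and Vldlr, its relative, stood at -0.40. Of 11 genes of the oxysterol response and cholesterol efflux, 1 was higher and 2 lower at 1.5-fold, near the shares of all genes, with a median of -0.06. The sterol-sensing receptor gene Nr1h3 had 665 and 304 counts, a ratio of -1.42 (-1.62 to -1.22). The cholesterol exporter gene Abca1 had 11601 and 7961 counts, a ratio of -0.83 (-0.87 to -0.79). Ch25h, which makes an oxysterol, had 45 and 111 counts, a ratio of 1.01 (0.50 to 1.55), and Cyp7b1 stood at 0.45.

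Of 21 measured genes among 22 of other fatty acid synthesis, 8 (38.1%) were higher at 1.5-fold and 2 (9.52%) lower, where 12.4% and 12.8% of all genes were, and the median was 0.23. Elovl4, an elongase of very long chains, had 535 and 1914 counts, a log2 ratio of 1.55 (1.41 to 1.69). Also past 1.5-fold, and named after their values were seen, were Hsd17b12, the ketoreductase of the elongation cycle, at 0.97, the elongase gene Elovl2 at 0.77, and the Scd3, Scd4 and Fads3 genes described above. The others were Hacd1, a dehydratase of the elongation cycle, at 0.67 (0.38 to 0.97) and the lipogenic gene Thrsp at 0.79 (0.52 to 1.07). The intervals of Hacd1, Thrsp, Fads3 and Scd4 reach below 1.5-fold, so their place past that line is less certain. Further elongation genes of the list lay within 1.5-fold, namely Hacd2 at 0.27, Elovl1 at 0.14, Tecr at 0.12, Hacd3 at -0.11 and Elovl7 at -0.47. The glucose-responsive factor gene Mlxipl, which drives lipogenic genes, had 49630 and 31748 counts, a ratio of -0.93 (-0.95 to -0.91). Fads6, a desaturase relative, stood at -0.59. Acly, which supplies cytosolic acetyl-CoA, was the highest of the list at 408 TPM in B6 and 278 in CAST, a ratio of -0.17. Elovl3 had 0 counts in both libraries.

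After TMM and on the TPM scale, the medians of the sterol synthesis, SREBP processing, sterol uptake and fatty acid synthesis lists were above that of all genes. For SREBP processing the gap was small, 0.043 against 0.018 after TMM and -0.251 against -0.264 on the TPM scale. The median of the efflux list was below that of all genes on both. Total counts move all genes nearly alike, so that scale cannot test these positions.

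**Figure D5:**
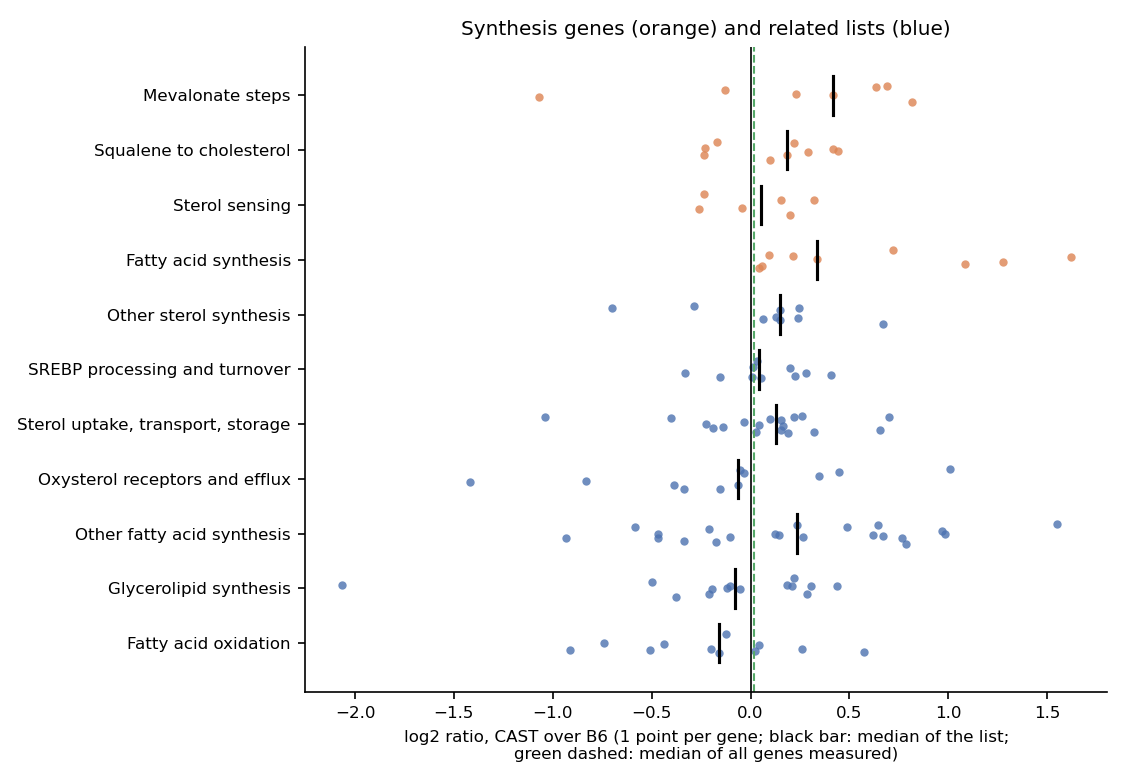
The log2 ratio, CAST over B6, of each measured gene in the 4 groups of the 31 genes (orange) and in 7 related lists (blue), with a black bar at each list's median and a green dashed line at the median of all genes, 0.02. The fatty acid group and the other fatty acid synthesis list reach furthest to the right, to 1.62 and 1.55, and the oxidation and glycerolipid lists have medians below 0.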

How the data were processed

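RNA-seq of 2 libraries was analysed, 1 per strain. Expected counts per transcript were made by the authors with RSEM on GRCm38 (per the submitters' processing notes), a tool that shares ambiguous reads out among transcripts. The other deposited value is the fraction of all transcript molecules and sums to 1 in each file; rescaling it gave TPM. The sources used here name no aligner, version, strandedness or annotation release.

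Each gene's expected counts were added up and rounded to whole numbers. Symbols (37607 of 38924 gene IDs; unmatched IDs took 0.176% of the B6 and 0.172% of the CAST counts) and positions came from a GENCODE annotation of GRCm38. TMM factors (edgeR 4.0.16 in R 4.3.3; 1.056 for B6, 0.947 for CAST) scaled the libraries, and log2 ratios used a pseudocount of 0.5. Intervals of ratios and shares are exact Clopper-Pearson 95% intervals, and 0 counts were read as up to 3. Shares and medians used genes whose counts in the libraries sum to at least 100. Copies were sought with minimap2 2.31, with at least 95% identity over 200 bases and 50% of the shorter transcript. Intervals came from scipy 1.17.1, tables from pandas 2.3.3 and numpy 2.4.6, figures from matplotlib 3.10.9, all under Python 3.11.15, and the calculations were tested on simulated data.

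The 31 genes and all lists were chosen with earlier results of these data known. All 31 genes are named, and of each list the 2 highest and 2 lowest ratios. Some genes that this rule names are not reported here. Transcripts were named where the main one or its share (by 20 points) differed, and for Srebf1, Insig2 and Acaca. Alternatives were DESeq2 1.42.0 size factors, total counts, TMM without acinar and hormone genes, TPM with a pseudocount of 1, a pseudocount of 5, a filter of 20 counts or none, copies added, and protein coding transcripts only. TPM centred on the median of all genes was added after seeing the data. Protein sequences were not used here.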

Additional observations from a re-analysis of the deposited data

How the results depend on the processing

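The counts of genes past 1.5-fold and 2-fold and the medians of the 4 groups were the same or close under DESeq2 size factors, TMM without acinar and hormone genes, a pseudocount of 5, other filters, added copies and protein coding transcripts only. Filters changed the background: 14.9% of all genes were 1.5-fold higher in CAST and 15.6% in B6 with a filter of 20 counts, and 21.7% and 20.7% with none. Scaled by total counts, 4 of the 31 genes were 1.5-fold higher in CAST, and the medians were 0.056 for all 31, 0.26 for the mevalonate, 0.029 for the squalene, -0.10 for the sensing and 0.18 for the fatty acid group. On the TPM scale, 2 were 1.5-fold higher and 2 lower, 1 was 2-fold higher, and these medians were -0.12, 0.071, -0.15, -0.25 and -0.0095. On TPM centred on the median of all genes, which was chosen after seeing the data, 1 was 2-fold higher. The medians there were 0.14 for all 31, 0.33 for the mevalonate, 0.11 for the squalene, 0.0092 for the sensing and 0.25 for the fatty acid group. The ratios of Fads2, Fads1, Scd1 and Pmvk were 1.46, 0.93, 1.12 and -1.23 by total counts, and 1.16, 0.70, 0.54 and -1.28 by TPM. With protein coding transcripts only, Lss was above 0 and Acacb below it. The cause of these shifts was not tested. No paired analysis was possible because each strain has 1 library, and for the same reason no replicate could be left out. Depth limits the genes with few counts: the widest interval among the 31 genes was that of Acacb, and those of Scd4 and Ch25h were wider.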

Other observations

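The genes of fatty acid use and storage were described in the same way. Of 11 measured genes of fatty acid oxidation, none was 1.5-fold higher in CAST and 2 were lower, where 12.4% and 12.8% of all genes were, with a median log2 ratio of -0.16 and 4 genes above 0. Cpt1a, which admits fatty acids to mitochondria, had 5514 counts in B6 and 4024 in CAST, a ratio of -0.74 (-0.80 to -0.68). Pdk4, a kinase that limits pyruvate oxidation, had 5350 and 3466 counts, a ratio of -0.92 (-0.98 to -0.85). The oxidation enzymes Acadm and Hadha were at 0.57 and 0.26. Of 14 glycerolipid synthesis genes, none was 1.5-fold higher and 1 was lower, with a median of -0.08 and 6 genes above 0. That gene was Acsl6, an acyl-CoA synthetase, with 1524 and 444 counts and a ratio of -2.07 (-2.22 to -1.91). Its relatives Acsl4 and Acsl1 were at 0.44 and 0.30, and the phosphatidate phosphatase gene Lpin3 was at -0.50. The medians of both lists were below that of all genes after TMM and on the TPM scale. Total counts move all genes nearly alike, so that scale cannot test this.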
